A study of Mus musculus with 10 samples.

Results

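The genes described here encode 7 metalloproteinases and 3 of their inhibitors: the membrane-bound sheddases Adam8, Adam9, Adam10 and Adam17, the matrix metalloproteinases Mmp9, Mmp13 and Mmp14, and the tissue inhibitors of metalloproteinases Timp1, Timp2 and Timp3. Members were all probe sets that the platform annotation gives to exactly 1 of these 10 symbols, which yielded 10 of the 18193 named genes and 26 of the 45037 probe sets in the table. Adam8, Adam9, Mmp13 and Timp1 had 1 probe set each, Mmp9 2, Adam17 and Mmp14 3, Adam10 and Timp3 4, and Timp2 6. Where a gene had several, the one with the highest mean log2 signal over all arrays stood for the gene. Probe sets of 1 gene share their target and are not replicates of each other.

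RhoA-null keratinocytes (written KO) carried the genotype RhoA fl/fl K5 cre and controls, called Wildtype in the titles, RhoA fl/+ K5 cre. All groups therefore carried the Cre recombinase, driven by a keratin 5 promoter, which basal keratinocytes use, while controls had 1 floxed allele. Cells were either freshly isolated from mouse epidermis (2 control and 2 KO arrays) or grown as primary cultures (3 control and 3 KO arrays). The titles call the arrays biological replicates without naming animals, so errors and p-values measure the spread between these arrays.

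ADAM sheddases cut the outer part of membrane proteins off the cell surface, releasing EGF receptor ligands, cytokines and adhesion molecules, and ADAM10 also makes the first cut in Notch signalling. Matrix metalloproteinases cut collagens, laminins and other matrix proteins, and the membrane-bound MMP14 also activates the precursor of MMP2. TIMPs block the catalytic site of these enzymes, and TIMP3, which binds to the matrix, inhibits ADAM17 as well as matrix metalloproteinases. In epidermis these enzymes are known from wound closure, when keratinocytes move over the matrix.

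The deposited values are linear probe set signals, and their scale differs between conditions: the array median was 64.09 to 64.8 on fresh and 7.75 to 8 on cultured arrays. Signals are therefore compared within a condition only. On cultured arrays 53.9% to 54.3% of probe sets lay below 10 signal units, called the floor here. The KO and control groups were compared with limma on log2 signals across all probe sets above their own array's median on at least 2 arrays, with Benjamini-Hochberg adjustment and a threshold of 0.05. The representative Rhoa probe set read 9240 to 11249 in control and 7628 to 8209 in KO cultures, and 3526 to 4059 in control and 4296 to 4398 in KO fresh cells. Whether this probe set covers the deleted exons was not established here, so it checks no label. Basal keratinocyte markers (Krt5, Krt14 and 4 others) summed to 167144 to 204306 on cultured and 71942 to 74837 on fresh arrays. Fresh KO replicate 2 stood apart, with a summed hair follicle marker signal of 30788 against 302.5 to 1003 on the other fresh arrays. Melanocyte markers were also highest there, at 4350, against 892.1 on KO replicate 1 and 580.7 and 438.7 on the controls, with 2 of 4 tested at an unadjusted p under 0.05, higher in KO.

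In culture 22 of the 26 probe sets were tested and only that of Adam9 passed the threshold (1 of 22), where 0.273% of all 22682 probe sets tested did. An unadjusted p under 0.05 was seen for 6 of the 22, 2 higher and 4 lower in KO, beside 15.6% of all probe sets. Control and KO arrays did not overlap for 8 (36.4%), 4 in each direction, beside 22.3% of all. The median log2 difference was -0.26, beside -0.01 over all probe sets tested. Cell type markers also differed with KO in culture: 6 suprabasal keratinocyte markers (among them Lor and Ivl) summed to 1450 to 1580 in control and 3958 to 7056 in KO. Of these 6, 5 were higher at an unadjusted limma p under 0.05, and 1 passed the adjusted threshold. The 5 melanocyte markers summed to 216.9 to 475.4 in control and 417.9 to 1315 in KO. Their part in the values below was not tested. The 4 untested probe sets, 1 of Adam10 and 3 of Timp2, read below 10 on all 6 cultured arrays.

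In fresh cells 21 probe sets were tested and none passed the limma threshold, and none of all 22893 probe sets tested did either (0%). An unadjusted p under 0.05 was seen for 8 of the 21, all lower in KO, beside 12.9% of all probe sets in either direction and 6.89% in the lower one. Groups did not overlap for 11, again all lower in KO, beside 23.5% of all that were lower without overlap. These 11 belong to 4 genes: Timp2 with 4, Timp3 with 4, Mmp9 with 2 and Mmp14 with 1. The 8 with an unadjusted p under 0.05 belong to Timp2, Timp3 and Mmp9. The median log2 difference was -0.29, beside 0.00 over all probe sets tested. By representative probe set, 2 of the 8 genes tested had an unadjusted limma p under 0.05, both lower, and the median was -0.21.

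**Figure D1:**
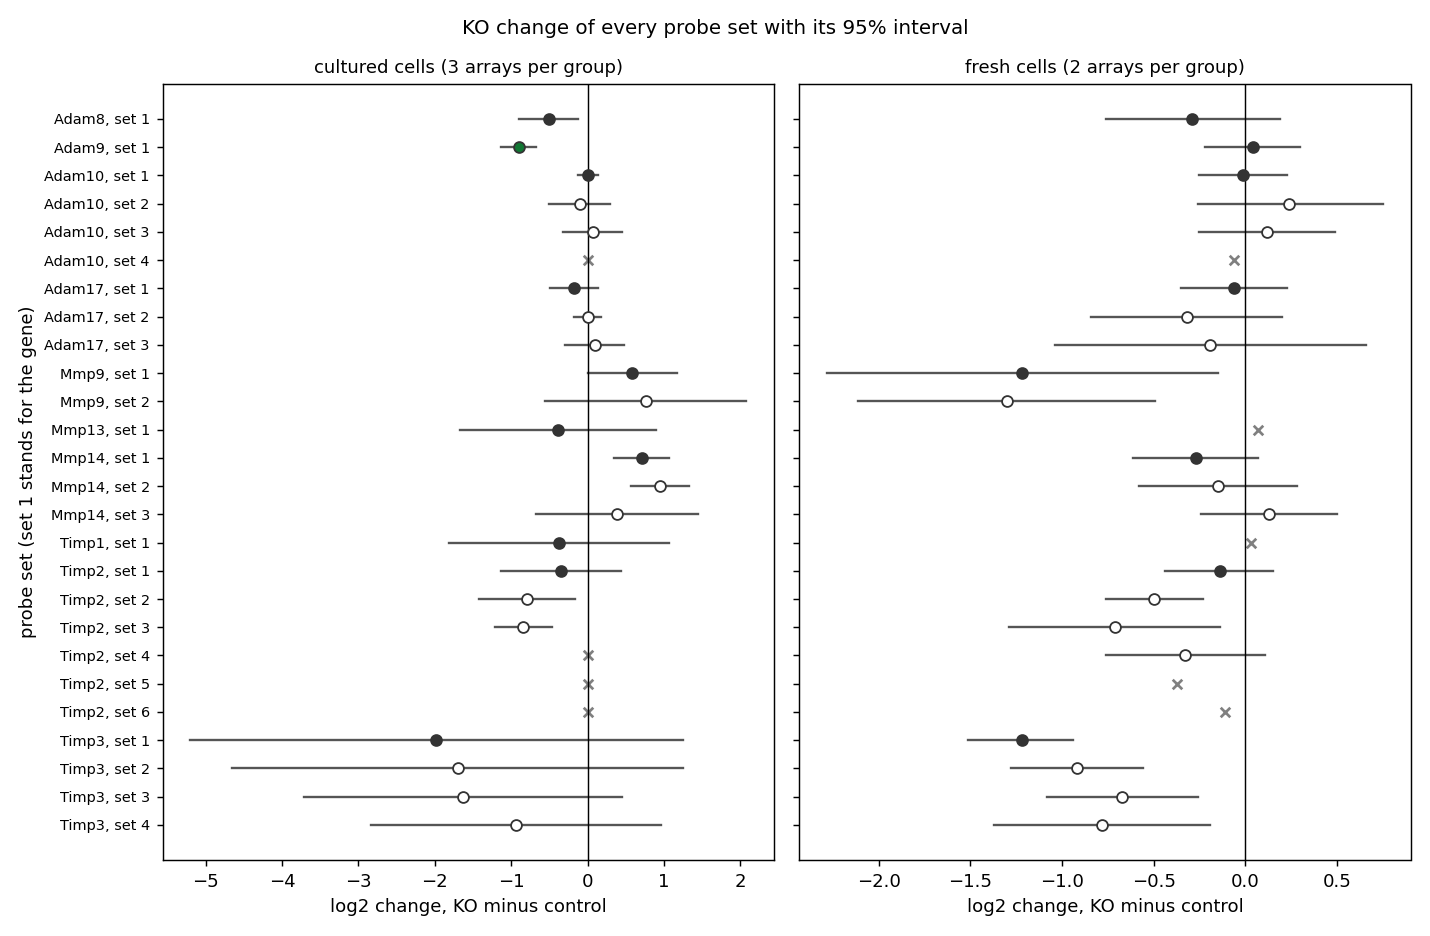
Log2 difference in signal, KO minus control, for all 26 probe sets in cultured (left) and fresh (right) cells, with limma's 95% interval; the 2 panels have different horizontal scales. Filled points stand for the gene, open points are its other probe sets, the green point (Adam9 in culture, -0.90) passed the threshold, and crosses were not tested. All 4 Timp3 and both Mmp9 intervals in fresh cells lie below 0.

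Adam9, a widely expressed sheddase that binds integrins, fell in cultured KO cells. Its signal was 7693, 7994 and 9597 in control replicates 1 to 3 and 4545, 4578 and 4346 in KO replicates 1 to 3. Every KO array thus lay below every control, with an SD of 1023 in control and 125.6 in KO. The change was -0.90 on the log2 scale (SE 0.09, 95% interval -1.13 to -0.67, n = 3 per group), 1.87-fold lower in KO with a limma adjusted p of 0.0444. The call was narrow: leaving out any 1 of the 6 cultured arrays gave log2 changes of -0.96 to -0.80 and limma adjusted p from 0.0535 to 0.199, so the call was lost each time. It held under 5 of 15 alternative settings.

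In fresh cells the Adam9 signal was 1079 and 1049 on control arrays against 1151 and 1041 on KO arrays, and the groups overlapped. The log2 difference there was 0.04 (SE 0.10, 95% interval -0.22 to 0.30, limma adjusted p = 0.89, n = 2 per group). The KO effect in culture minus that in fresh cells was -0.94 on the log2 scale (SE 0.14), with an adjusted p of 0.0111 from the combined limma fits. Of 18773 probe sets tested for such a difference 1.95% passed, and 3 of the 20 member probe sets did, this one and 2 of Mmp14. For Adam9 the difference passed under 18 of 19 alternative settings, with values of -1.02 to -0.85 and adjusted p from 0.00536 to 0.094.

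The genes whose log2 profile over the 6 cultured arrays lay nearest to that of Adam9 were Popdc3, Nampt and Eci1, out of 10993 others. Their root mean square differences from it were 0.04, 0.07 and 0.13 log2 units, where Adam9 itself varied by 0.46 about its mean. Popdc3 read 935.4 ± 94.78 in control and 496.8 ± 9.414 in KO (SD, n = 3 per group).

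Adam8, a sheddase best known from leukocytes, read 11221, 12110 and 14945 in control against 7455, 8955 and 10460 in KO cultures. All KO arrays lay below all controls, with a log2 difference of -0.51 (SE 0.16, n = 3 per group) that did not pass (limma adjusted p = 0.228). On these arrays the Langerhans cell, neutrophil, endothelial and mast cell markers all lay below 10 (5, 7, 5 and 4 genes). Of the 7 macrophage markers 4 did, and Cd68 read 24.24 to 29.61 in control and 60.32 to 85.77 in KO. Of the 4 T cell markers Cd3d, Cd3g and Ptprc, the last of which marks all leukocytes, lay below 10, while Cd3e read 6479 to 6822 on all 6 arrays. In fresh cells Adam8 stood at 450.9 and 326.3 on control arrays and at 333.8 and 296.7 on KO arrays, with overlap (limma adjusted p = 0.566). Langerhans cell and macrophage marker sums of the fresh arrays are given with Mmp9 below. The part of all these cell types in the Adam8 values was not tested in either condition.

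Adam10, the sheddase of Notch receptors and E-cadherin, read 6427, 6115 and 6617 in control against 6260, 6609 and 6402 in KO cultures. The log2 difference of 0.01 had a 95% interval of -0.12 to 0.14, the narrowest among the representative probe sets in culture (limma adjusted p = 0.963). In fresh cells its 2 control arrays gave 1920 and 2117 and its 2 KO arrays 1935 and 2062, with an interval of -0.25 to 0.23. Neither of its other tested probe sets separated the groups in either condition.

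Adam17, the sheddase of tumour necrosis factor and of several EGF receptor ligands, read 1611, 1634 and 1694 in control against 1204, 1622 and 1586 in KO cultures. KO replicate 1 lay lowest and the groups overlapped, with a log2 difference of -0.18 (95% interval -0.49 to 0.14, limma adjusted p = 0.556). In fresh cells the values were 1640 and 1519 for control against 1636 and 1400 for KO (log2 difference -0.06, 95% interval -0.35 to 0.23). All 3 Adam17 probe sets overlapped between the groups in both conditions.

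**Figure D2:**
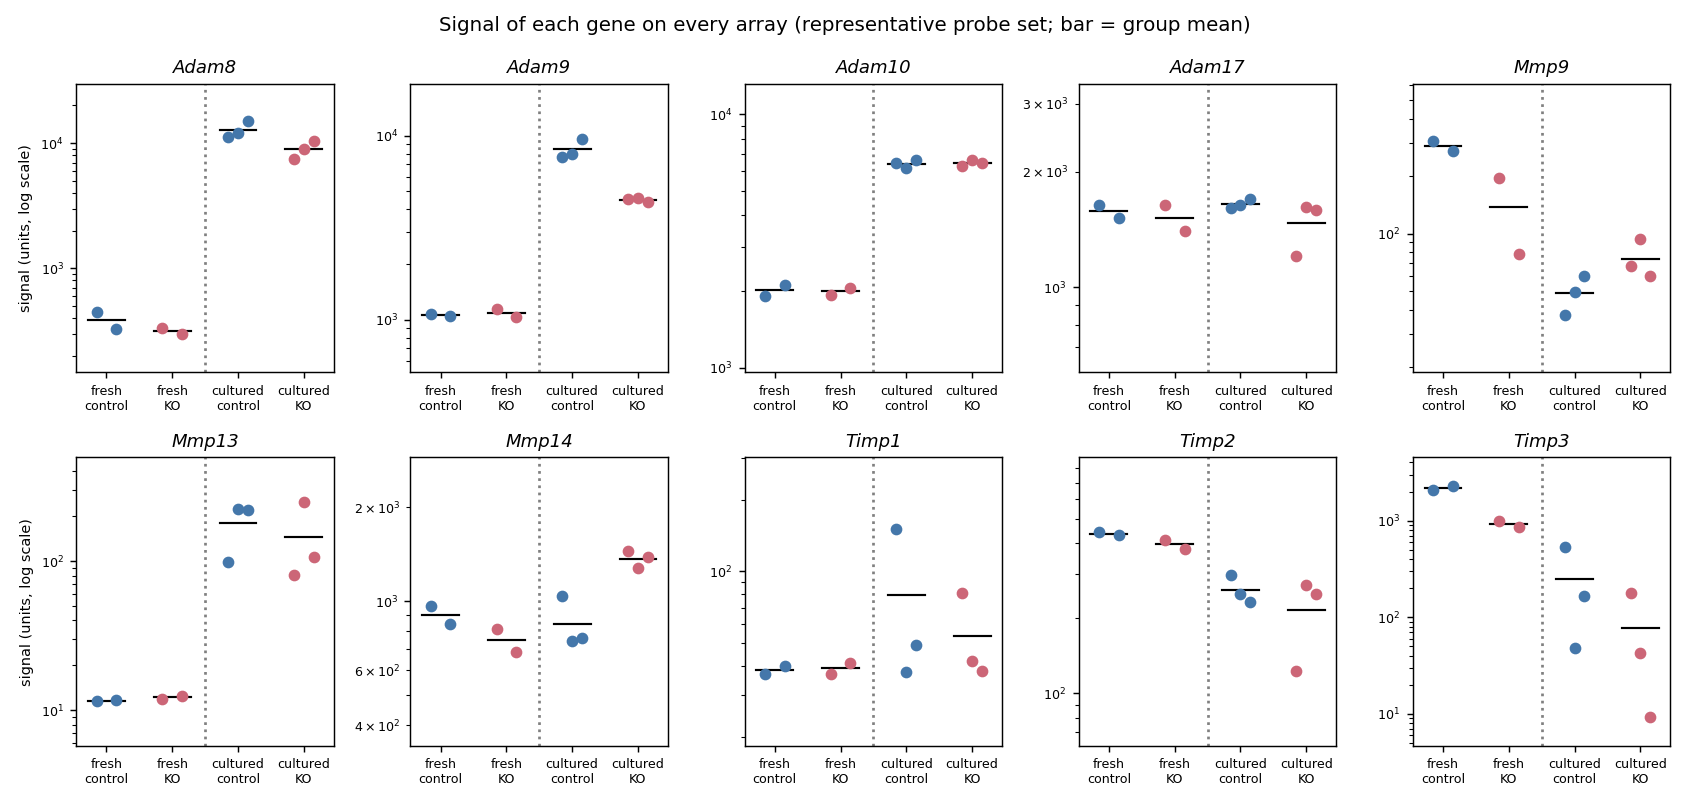
Signal of each gene's representative probe set on every array, on a log scale, by group; points are arrays, bars are group means, blue is control and red KO. The dotted line parts fresh from cultured arrays, whose scales differ and cannot be set against each other. Adam9 is lower on all 3 cultured KO arrays (4346 to 4578) than on the controls (7693 to 9597), and Timp3 on both fresh KO arrays (860.8 and 998).

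Mmp14, the membrane-anchored collagenase, had 2 probe sets whose cultured groups did not overlap. The representative one read 1036, 745.5 and 759.1 in control against 1443, 1272 and 1386 in KO, a log2 difference of 0.71 (SE 0.15, 95% interval 0.34 to 1.07, n = 3 per group). The second read 590.4, 602.6 and 429.6 in control against 1130, 975.4 and 999 in KO, a log2 difference of 0.95 (SE 0.16, 95% interval 0.57 to 1.33). Neither passed over all probe sets (limma adjusted p = 0.132 and 0.0979), although every KO array lay above every control. The third set read 177.1, 58.51 and 64.91 in control against 116.3, 115.2 and 112.7 in KO, and overlapped, with control replicate 1 above all KO arrays.

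In fresh cells the representative Mmp14 probe set pointed the other way, with 966 and 844.2 for control against 814.9 and 687.8 for KO (log2 difference -0.27, SE 0.14, limma adjusted p = 0.463, n = 2 per group). The KO effects of the 2 conditions differed by 0.98 (SE 0.20) for this set and by 1.09 (SE 0.23) for the second, with adjusted p of 0.0352 and 0.0391 from the combined limma fits. Of the third set the difference was 0.25 (SE 0.45, adjusted p = 0.8). The calls of the first 2 held under 10 of 19 and 9 of 18 alternative settings, with differences of 0.85 to 1.13 and 0.93 to 1.26. Both were lost without fresh control replicate 1 or 2, fresh KO replicate 2, cultured control replicate 3 or any single cultured KO array. The first was also lost without cultured control replicate 2, the second with values below 16 set to 16, and both in 1 limma fit over all 10 arrays.

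Mmp9, gelatinase B, was low in culture, at 37.71, 49.75 and 59.71 in control against 67.46, 93.2 and 59.89 in KO. KO replicate 3 lay just above control replicate 3, so the groups did not overlap, and the log2 difference of 0.58 (SE 0.24) did not pass (limma adjusted p = 0.319). The other probe set read 30.29 to 37.39 in control and 37.48 to 142.2 in KO.

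In fresh cells Mmp9 gave 305.1 and 272 on control arrays against 195.5 and 78.69 on KO arrays, with KO replicate 2 lowest. The second probe set gave the same order of groups, with 205.5 and 201.2 for control against 115.1 and 58.95 for KO. Their log2 differences were -1.22 (SE 0.42) and -1.30 (SE 0.32), neither past the threshold (limma adjusted p = 0.347 and 0.292, n = 2 per group). Langerhans cell markers, of which 5 of 5 were tested and 4 had an unadjusted p under 0.05 in the lower direction, summed to 21490 and 17076 on control arrays and to 13955 and 6203 on KO arrays. Macrophage markers summed to 801.4 and 709.9 on control arrays, and 616.8 and 435.9 on KO arrays. The part of these cells in the Mmp9 values was not tested, and in such bulk samples fewer cells of a type and less RNA per cell cannot be told apart. Without fresh KO replicate 2 the representative log2 difference was -0.56, and without KO replicate 1 it was -1.87. In both fits the lone KO array is assumed to vary like the controls, so no p is given.

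The difference of Mmp9's KO effects between culture and fresh cells was 1.80 (SE 0.48, adjusted p = 0.0824 from the combined limma fits). Without fresh KO replicate 1, which leaves 1 fresh KO array, it was 2.46.

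Mmp13, the main interstitial collagenase of the mouse, read 98.38, 222.6 and 221 in control against 81.07, 248.2 and 107.1 in KO cultures. The spread within each group was wide and the groups overlapped (log2 difference -0.39, SE 0.52, limma adjusted p = 0.758). In fresh cells it read 11.53, 11.64, 11.91 and 12.49, near the bottom of the scale, and was not tested. By its rank within each array it stood at the 0.833 to 1.36 percentile on fresh and at the 65.5 to 72.4 percentile on cultured arrays. Of all probe sets 0.138% had as large a gap between the median ranks in that direction.

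The promoter window of Mmp13 is shown because this gene had the widest rank gap of the 10. Windows run from 250 bases before to 50 after the annotated start, were taken from RefSeq on GRCm38.p6, and matched 8 of the 10 genes, all but Adam9 and Mmp9. The Mmp14 window is shown beside it because the KO effect on 2 of this gene's probe sets differed between culture and fresh cells. Both strands were searched for the AP-1 element TGANTCA, the TEAD element GGAATG and the serum response factor site known as the CArG box, and matches are in capitals. The Mmp13 window lies at chr9:7272264-7272563 on the + strand and that of Mmp14 at chr14:54431348-54431647 on the + strand.
Mmp13: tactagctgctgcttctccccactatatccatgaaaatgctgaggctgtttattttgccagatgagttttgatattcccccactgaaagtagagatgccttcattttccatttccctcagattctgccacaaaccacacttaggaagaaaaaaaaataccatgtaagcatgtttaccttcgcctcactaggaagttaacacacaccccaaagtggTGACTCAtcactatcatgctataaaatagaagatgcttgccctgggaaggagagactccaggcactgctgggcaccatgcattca
Mmp14: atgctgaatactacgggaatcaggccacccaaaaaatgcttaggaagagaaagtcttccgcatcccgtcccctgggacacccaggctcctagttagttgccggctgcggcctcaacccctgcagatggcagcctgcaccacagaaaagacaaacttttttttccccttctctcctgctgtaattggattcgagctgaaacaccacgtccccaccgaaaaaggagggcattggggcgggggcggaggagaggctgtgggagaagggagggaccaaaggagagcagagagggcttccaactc
The capitals in Mmp13 are an AP-1 match from position -35 to -29, counted from the start, which reads as a match on both strands. Of 32851 windows 7.81% hold the AP-1 letters, 14.7% the TEAD letters and 1.63% a CArG box. Of the other member windows that of Timp1 held the TEAD letters, from position -247 to -242, and the remaining 6 held none of the 3. A match is a description of these letters and shows no binding.

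Timp3, the matrix-bound inhibitor, had the smallest p of the members in fresh cells, where its 4 probe sets all separated the groups. The representative one gave 2075 and 2257 for control against 998 and 860.8 for KO, a log2 difference of -1.22 (SE 0.11, 95% interval -1.51 to -0.94, n = 2 per group), that is 2.33-fold lower in KO. It ranked 6 of 22893 probe sets by p, but did not pass (limma adjusted p = 0.153). The second set gave 1569 and 1611 for control against 953.4 and 741.8 for KO, a log2 difference of -0.92 (SE 0.14). The other 2 had log2 differences of -0.67 and -0.78, so every fresh KO array was below every control in each of the 4 sets.

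The representative Timp3 set read 998 on fresh KO replicate 1 and 860.8 on replicate 2, the array with the high hair follicle marker sum. Without KO replicate 2 the representative log2 difference was -1.12, and without KO replicate 1 it was -1.33. Each of these fits rests on 1 KO array, so no p is given for them. Over the 13 alternative settings the difference ran from -1.33 to -1.12. In those that kept all arrays the limma adjusted p ran from 0.107 to 0.774. Summed basal keratinocyte markers were level across the fresh arrays, at 74837 and 71942 for control against 74072 and 74082 for KO. The sum hides unlike genes: Krt14 read higher in KO without overlap, and Itga6, Itgb4, Trp63 and Col17a1 lower. Of the 6 tested, 1 was higher and 1 lower at an unadjusted limma p under 0.05. The 7 fibroblast markers summed to 371.5 and 349.3 for control against 518.4 and 1400 for KO. The last sum was mostly Dcn, which encodes decorin and read 1012 on that array and 62.65 to 136.7 on the others. Suprabasal keratinocyte markers summed to 57784 and 61175 for control against 62285 and 61031 for KO. Among them Krt1, Krt10, Ivl and Flg read higher in KO without overlap, and Lor lower. Of the 6 tested, 3 were higher and 1 lower at an unadjusted limma p under 0.05. The part of the basal and suprabasal keratinocyte, hair follicle, fibroblast, melanocyte and Langerhans cell markers in the Timp3 values was not tested.

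In culture Timp3 varied widely between replicates. It read 538.8, 48.09 and 166.4 in control against 177.5, 42.83 and 9.32 in KO, the last of which is at the floor. Replicate 1 was the highest in both groups. The log2 difference of -1.98 had an SE of 1.31 and a 95% interval of -5.20 to 1.25 (limma adjusted p = 0.516), and it moved to -0.90 without KO replicate 3 and to -3.03 without KO replicate 1. The genes nearest to this profile, Il1r2, Zbtb16 and Tslp, lay 0.95 to 1.02 log2 units from it, so no gene followed it closely.

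**Figure D3:**
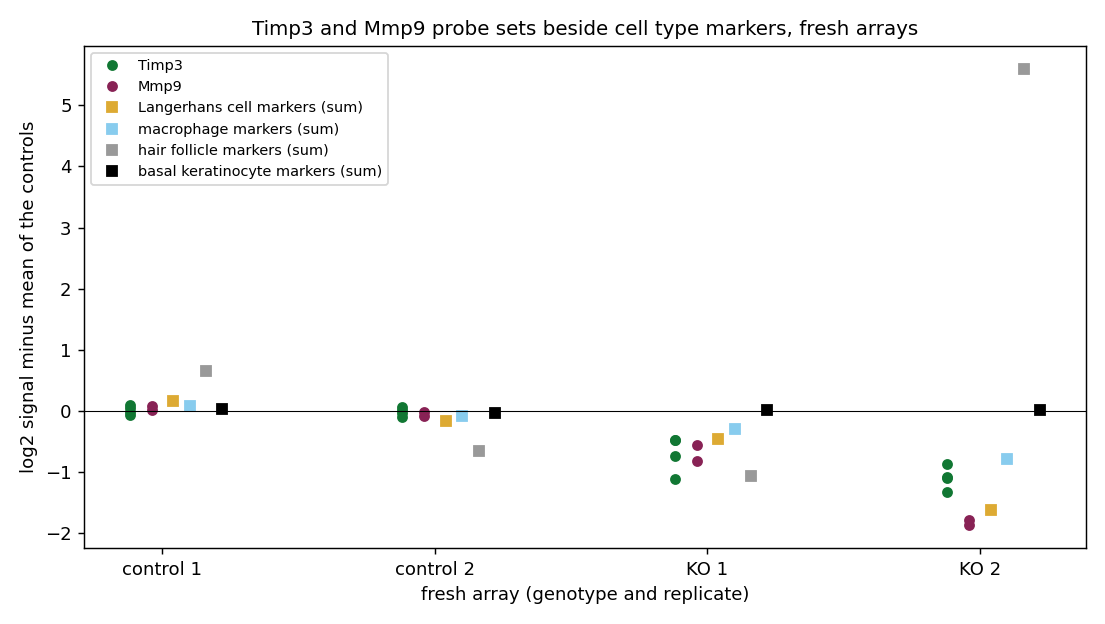
Log2 signal of the 4 Timp3 and 2 Mmp9 probe sets on the 4 fresh arrays, and of the summed signals of 4 cell type marker lists, each relative to its mean over the 2 controls. Timp3 is low on both KO arrays. Mmp9 and the Langerhans cell markers (13955 and 6203 on KO replicates 1 and 2) are lowest on KO replicate 2. Hair follicle markers are high on that array only (30788). The basal keratinocyte sum is level, though its genes moved in both directions.

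Timp2, which inhibits metalloproteinases and also takes part in MMP2 activation with MMP14, was read by 6 probe sets with unlike values. The representative one read 297.5, 249.7 and 233.1 in control against 123.3, 272.1 and 249.9 in KO cultures, where KO replicate 1 alone was low and the groups overlapped (log2 difference -0.35, limma adjusted p = 0.639). Without that array the difference was 0.01. The second read 162.4, 107.6 and 101.9 in control against 53.26, 76.6 and 83.18 in KO, a log2 difference of -0.80 (SE 0.25, limma adjusted p = 0.237). The third read 78.68, 63.61 and 53.99 in control against 35.67, 37.01 and 35.53 in KO, a log2 difference of -0.84 (SE 0.15, limma adjusted p = 0.107). Its name marks it as a set that can match more than 1 transcript.

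In fresh cells these last 2 Timp2 sets were also lower in KO without overlap. The former gave 932.1 and 987.2 for control against 656.8 and 704.9 for KO (log2 difference -0.50, SE 0.10). The latter gave 647.7 and 721.8 against 522.2 and 332.8 (-0.71, SE 0.23). Neither passed (limma adjusted p = 0.276 and 0.333, n = 2 per group). The representative set gave 441.3 and 431 for control against 412.7 and 378.1 for KO, a smaller log2 difference of -0.14 (SE 0.12).

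Timp1, the soluble inhibitor induced in many activated cells, was low. In culture it read 151, 37.59 and 48.8 in control against 80.68, 41.99 and 38.03 in KO, with replicate 1 again the highest in both groups. The log2 difference of -0.37 (SE 0.59, limma adjusted p = 0.802) turned to 0.24 without control replicate 1. In fresh cells Timp1 read 36.84 to 41.26 on all 4 arrays, below the array median, and was not tested.

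Each of the 3 inhibitor genes overlaps another gene in the RefSeq annotation of GRCm38.p6, Timp1 with Syn1, Timp2 with Cep295nl and Timp3 with Syn3, as Adam17 does with Iah1. The representative probe sets of the 3 TIMP partners read 3.21 to 3.25, 5.57 to 7.36 and 9.51 to 11.63 on cultured arrays, and 43.86 to 50.81, 43.94 to 64.45 and 35.57 to 47.28 on fresh arrays, where the median is near 64. Iah1, in contrast, read 1188 to 2187 on cultured and 204.7 to 299.6 on fresh arrays. The promoter windows of Timp2 and Timp3 are shown because both genes read lower in KO in fresh cells without overlap on all their tested probe sets. Mmp9 did too but has no window. Adam8 and Adam17 were also lower on all their tested sets, with overlap. Neither holds a match to the 3 motifs, so no letters are in capitals. The Timp2 window lies at chr11:118355362-118355661 on the - strand and that of Timp3 at chr10:86300162-86300461 on the + strand.
Timp2: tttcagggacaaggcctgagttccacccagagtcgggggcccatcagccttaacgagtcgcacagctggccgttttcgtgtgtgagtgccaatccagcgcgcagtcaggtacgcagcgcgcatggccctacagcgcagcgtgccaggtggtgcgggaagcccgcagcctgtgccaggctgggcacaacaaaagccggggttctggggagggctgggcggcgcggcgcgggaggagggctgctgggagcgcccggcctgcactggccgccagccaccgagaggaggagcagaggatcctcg
Timp3: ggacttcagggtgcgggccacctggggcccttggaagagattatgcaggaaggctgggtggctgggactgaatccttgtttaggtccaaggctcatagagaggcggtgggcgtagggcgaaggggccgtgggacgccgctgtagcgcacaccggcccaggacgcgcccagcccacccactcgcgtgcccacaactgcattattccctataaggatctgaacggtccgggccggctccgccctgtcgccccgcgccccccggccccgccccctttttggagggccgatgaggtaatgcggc
They share a high content of CG pairs, 25 in Timp2 and 24 in Timp3, beside a median of 7 over all windows. The windows of Mmp13, Adam8, Timp1 and Mmp14 hold 1, 6, 8 and 10 CG pairs, and those of Adam17 and Adam10 hold 30 and 32.

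Cultured and fresh arrays were compared by rank within each array alone. Of the 26 probe sets 21 had no overlap in rank between all cultured and all fresh arrays, a share of the same order as the 83.1% of all probe sets, so the count says nothing about these genes. The condition and the scaling of the arrays cannot be told apart here. Adam8 stood at the 74.3 to 79.6 percentile on fresh and the 96.3 to 98.2 percentile on cultured arrays, and Adam9 at 89.9 to 90.7 and 94.2 to 97.1. Timp1 stood at 33.8 to 37.1 and 61.6 to 68.9. Timp3 went the other way, from 95.1 to 95.6 in fresh control and 88 to 89.3 in fresh KO to 53.1 to 79 in culture, where control and KO overlapped. The probe sets of a gene did not always share a direction. The representative Adam10 set stood at 94.6 to 95.3 on fresh and 95.7 to 95.9 on cultured arrays, while its next 2 sets went from 68.8 to 74.4 up to 86.8 to 89.5 and from 57.5 to 60.6 up to 80.5 to 83.8. Both Mmp9 sets and the representative Mmp14 set overlapped between the conditions. The second Mmp14 set stood higher in culture (53.1 to 57.6 on fresh, 77.1 to 85.7 on cultured arrays) and the third lower (73.9 to 77 and 63.7 to 70.1).

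**Figure D4:**
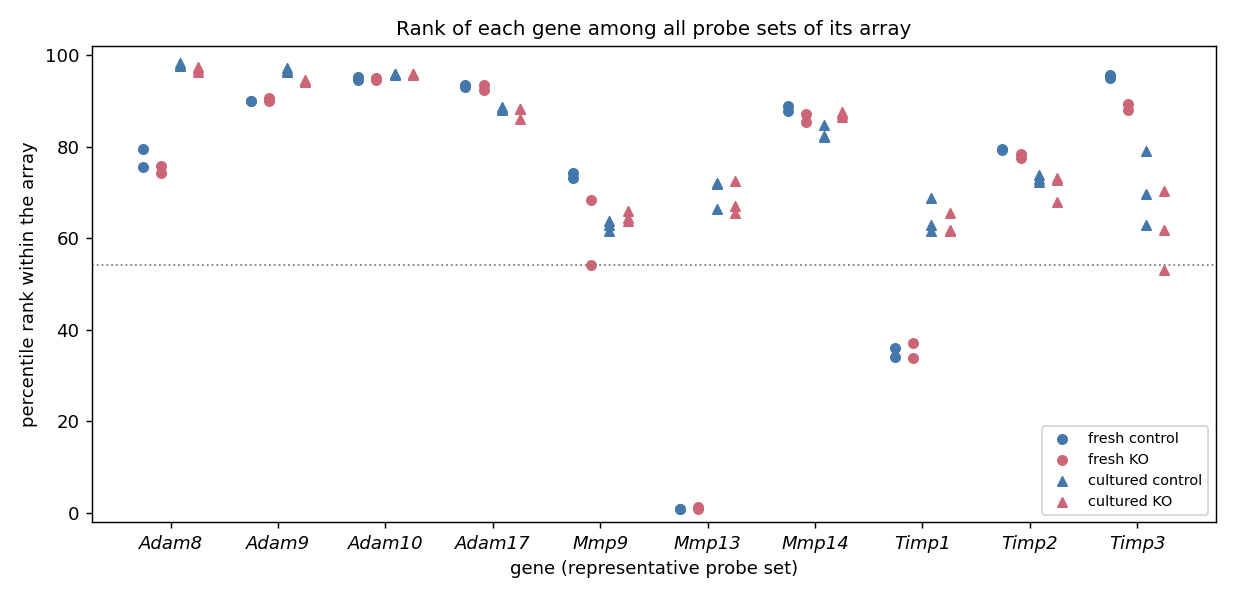
Percentile rank of each gene's representative probe set among all probe sets of its own array; circles are fresh and triangles cultured arrays, blue is control and red KO. Ranks of cultured arrays below the dotted line (about 54) belong to signals at the floor and are not read as expression levels. Mmp13 is near 1 on fresh and above 65 on cultured arrays.

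Other genes of the same system were taken from 7 lists, by the representative probe set of each gene. None of their members passed the limma threshold in either direction in either condition, and the counts below are of tested genes with an unadjusted p under 0.05, which 15.6% of all probe sets tested had in culture and 12.9% in fresh cells, in either direction. With so few genes tested per list, nothing particular to a list is read from these counts. Of 9 other ADAM genes 2 were tested in each condition, with 0. Adam12 read 1457 ± 120.5 in control and 1224 ± 166.8 in KO cultures (SD, n = 3 per group). Of 15 ADAMTS genes on the array 4 were tested, with 1 lower in culture, Adamts1, an aggrecan-cleaving protease, at 2378 ± 645.9 in control and 1226 ± 315 in KO (limma adjusted p = 0.213). In fresh cells 1 was higher, Adamts5, at 49.95 ± 2.517 and 69.89 ± 4.257 (SD, n = 2 per group).

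Among 15 other MMP genes on the array 5 were tested in culture, with 0, and 3 in fresh cells, with 1 higher. That gene was Mmp2, gelatinase A, which fibroblasts make, at 396.8 ± 65.01 in control and 658.9 ± 40.85 in fresh KO (limma adjusted p = 0.276, SD, n = 2 per group), beside the fibroblast marker sums given above. The part of fibroblasts in the fresh Mmp2 values was not tested. In culture Mmp2 read below 10 in both groups. Of the plasminogen system, whose product plasmin activates several MMPs, 3 of 6 genes were tested in culture with 0, and 5 in fresh cells with 2 lower. These were the tissue plasminogen activator gene Plat, at 742.7 ± 60.75 and 510.8 ± 17.85, and Serpinb2, an inhibitor of plasminogen activators, at 2062 ± 304.2 and 1548 ± 24.42.

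Of 17 other inhibitors and partners 12 were tested in culture, with 1 lower, and 11 in fresh cells, with 2 lower. Rhbdf1, which encodes an iRhom that carries ADAM17 to the cell surface, was lower without overlap in both conditions. It read 1486 ± 189.4 in control and 1028 ± 73.18 in KO cultures (log2 difference -0.53, SE 0.11, limma adjusted p = 0.139) and 2640 ± 75.69 and 2219 ± 136.9 in fresh cells (-0.25, SE 0.09, adjusted p = 0.347). Tspan15, a tetraspanin partner of ADAM10, read 238.3 ± 30.2 and 174.2 ± 23.89 in fresh cells.

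Among 25 proteins shed by ADAM10 or ADAM17, 22 genes were tested in culture, with 3 higher and 3 lower. The Notch ligand gene Jag1 read 3273 ± 291.5 in control and 5014 ± 340.3 in KO (log2 difference 0.62, limma adjusted p = 0.0833) and the receptor kinase gene Axl 10457 ± 1287 and 6317 ± 865.6. In fresh cells 24 were tested, with 1 higher and 5 lower, and the median log2 difference was -0.13 beside 0.00 over all probe sets. The EGF receptor ligand genes Ereg and Btc had the smallest p there, at 1272 ± 262.6 and 507.2 ± 19.91 for Ereg and 273.2 ± 115.7 and 68.17 ± 9.61 for Btc (limma adjusted p = 0.228 and 0.244, SD, n = 2 per group).

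Of 14 matrix substrate genes on the array 10 were tested in culture, with 3 higher and 1 lower, and a median log2 difference of 0.30 beside -0.01 over all probe sets. Lamb3, a laminin chain of the epidermal basement membrane, read 18109 ± 974 in control and 22538 ± 1354 in KO (limma adjusted p = 0.129, SD, n = 3 per group), and Tnc, which encodes tenascin C, 1112 ± 218.9 and 3021 ± 447.8 (adjusted p = 0.0643). In fresh cells 11 were tested, with 2 higher and 5 lower. The fibronectin gene Fn1 read 634.5 ± 33.45 and 270.7 ± 6.611, and the fibroblast collagen gene Col3a1 22.16 ± 1.025 and 88.21 ± 8.004 (limma adjusted p = 0.153 for both, SD, n = 2 per group).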

How the data were processed

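The authors deposited 1 linear intensity per probe set and array. Per the submitters' processing notes it was made with MAS5, whose version and settings were not given in the sources used here. Of 45037 probe sets 34945 had 1 symbol, updated through Entrez identifiers with RefSeq genes (GRCm38.p6, names and neighbours only), 932 had several and 9160 were unnamed here. Values were taken to log2 with no offset and fitted in limma 3.58.1 (R 4.3.3, lmFit, then eBayes with trend, 2-sided tests), each condition on its own because their scales differ. A probe set was kept where it exceeded the array median on 2 or more of a condition's arrays, and adjusted p-values are Benjamini-Hochberg values over all probe sets tested. Differences between the KO effects used both fits, with their moderated standard errors combined. The 2 conditions do not differ by 1 scaling factor: medians were higher on fresh arrays, but maxima were 31541.5 to 32618.2 on fresh and 111659.9 to 123446.5 on cultured arrays. Whether this alters the size of a log2 difference between KO and control was not tested. The fitting code was run on simulated data with independent noise on each array. That run checks the code only and does not bear on array pairing or on the calls reported here. The members and lists were chosen with earlier results of these data known, and gene lists are therefore described by counts. Named genes were all members, at most 4 called genes per list or else the 2 with the smallest p, and the 3 genes nearest in profile to the 2 members with the largest cultured difference; Cd68, Cd3e, Dcn, the genes overlapping members and Mmp2 in culture were named after their values were seen. Alternatives changed the filter, offset, floor, scaling, variance model, pooling of arrays and replicate block, and left out each array in turn. Precision is limited by having 2 or 3 arrays per group.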

Additional observations from a re-analysis of the deposited data

Results flagged for a closer look

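For 3 probe sets the KO effect differed between cultured and fresh cells by the test of that difference. They are the Adam9 set, with -0.94 on the log2 scale (cultured minus fresh), and 2 of the 3 Mmp14 sets, with 0.98 and 1.09. The Adam9 difference lost its call (adjusted p = 0.094, combined limma fits) without fresh control replicate 2.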

How the results depend on the processing

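In culture 1 member probe set was called, beside 62 of all probe sets tested. No filter gave 0 beside 2 of all, and values below 16 set to 16 gave 0 beside 6. No trend gave 0 beside 7, and the replicate block 0 beside 17. The filter at the 75th percentile gave 2 beside 176, and 1 fit over all 10 arrays 2 beside 395. Leaving out each cultured array in turn gave 0 in every case, beside 0 to 95 of all probe sets. In fresh cells 0 were called in the main fit and under every alternative that kept all arrays. Leaving out a fresh array leaves 1 array in a group, so no count is given here for those fits. The 3 differences between conditions stood beside 367 of all probe sets. They became 5 with the replicate block, beside 555, and 1 in the fit over all 10 arrays, beside 253. When a cultured array was left out they numbered 1 to 3, beside 147 to 482. The count of probe sets with no overlap in rank stayed at 21 to 22 when an array was left out. Among single genes, Adam10 in culture turned sign under quantile normalization (0.00 after rounding), and sign turns on leaving out an array occurred for Adam10 (-0.02 to 0.03), Timp1 (-0.77 to 0.24) and Timp2 (-0.56 to 0.01) in culture and for Adam9 (-0.03 to 0.11), Adam10 (-0.08 to 0.06) and Adam17 (-0.17 to 0.05) in fresh cells. Of the 248 values for single genes under alternatives, 227 kept direction and side of the threshold. Only Adam9 in culture was called in the main fit, so for the others keeping that side was nearly fixed in advance. The Adam9 call held under 5 of 15 alternatives. The cause of these shifts was not tested. With the replicate block the Adam9 adjusted p in culture was 0.0781 and that of the Mmp9 difference between conditions 0.0455 (limma). Whether replicate numbers pair the cultured arrays is not settled. Deviations from the group means correlated at 0.322, 0.081 and 0.249 for numbers 1 to 3, and at -0.3 to 0.172 for unlike numbers. Control replicate 2 correlated best with KO replicate 3 (0.172), so not every array correlated best with its own number. For the fresh arrays the value was -0.055. The intensities carry no depth, and cultured values near 10 or below bound no fold.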
